A study of Homo sapiens with 12 samples.

Results

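The nuclear-encoded subunits of the mitochondrial respiratory chain and ATP synthase were followed in human lymphoma cells given morusinol. Members were rows of the deposited expression table whose gene symbols match the names of complex I (NDUF genes), complex II (SDH), complex III (UQCR and CYC1), complex IV (COX) and complex V (ATP5) subunits. The rule found 78 genes of 61466 in the table: 36 of complex I, 4 of complex II, 9 of complex III, 12 of complex IV and 17 of complex V. NDUFA4 carries a complex I name but is a subunit of complex IV, and was counted there. The rule itself uses gene symbols and no measured value.

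The 4 groups were Farage cells with morusinol, Farage cells with vehicle control, SU-DHL-8 cells with morusinol and SU-DHL-8 cells with vehicle control. All were taken at 12 h with 3 libraries per group, 12 libraries in all. Farage and SU-DHL-8 are established lines of diffuse large B cell lymphoma. The labels give the control libraries the genotype WT and repeat the treatment in that field for the morusinol libraries. Morusinol is a prenylated flavonoid of mulberry root bark. The labels used here state no dose of morusinol, and the libraries are not stated to come from separate cultures, so p-values measure only the spread between these libraries.

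The respiratory chain passes electrons from NADH (through complex I) and from succinate (through complex II) to ubiquinone, then through complex III and cytochrome c to complex IV, which reduces oxygen. Complexes I, III and IV pump protons across the inner mitochondrial membrane, and complex V lets them back through a ring of c subunits to make ATP. Most subunits are made from nuclear genes and imported, while a small set is encoded by mitochondrial DNA, so both genomes have to supply matching amounts. The nuclear genes are known to be served by shared regulators, among them the transcription factors NRF1, GABP (an ETS factor) and YY1 and the PGC-1 coactivators.

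Expression is given as FPKM (fragments per kilobase of gene and per 1e6 fragments), which divides by a gene length. The steps between low values fitted the joined length of all annotated exons, which can exceed that of a transcript. FPKM levels of different genes are therefore only roughly comparable. Fold changes are log2 differences of FPKM + 1, from 3 libraries in a group, each with its SE from limma. That SE rests on 1 estimate of the spread per gene over all 12 libraries, adjusted toward that of other genes. It is therefore the same in both lines. After a log2 fold change ± gives this SE, and after an FPKM or a percentage it gives an SD. The fold changes were tested with limma over 17574 genes and called at a Benjamini-Hochberg adjusted p under 0.05. All 78 members passed the filter on low values. The 6 B lymphocyte markers were present in every group, summing per library to 613 to 660 FPKM in Farage morusinol, 966 to 1021 FPKM in Farage control, 230 to 238 FPKM in SU-DHL-8 morusinol and 354 to 368 FPKM in SU-DHL-8 control. These sums were lower with morusinol in both lines. Gene by gene, 5 of the 6 markers were called lower and 0 higher in Farage, while 4 were called lower and 2 higher in SU-DHL-8. The part of these marker changes in the results was not tested. Of the T cell markers CD3D, CD3E and CD3G were near 0, with a highest group mean of 0.0425 FPKM, while TRAC was at 47.1 FPKM in Farage morusinol and 70.0 FPKM in Farage control. Of all 6 T and NK cell markers, 2 had a mean of at least 1 FPKM in each SU-DHL-8 group and 1 in each Farage group. The 5 myeloid markers summed to at most 1.78 FPKM per library (SU-DHL-8 control). The 5 fibroblast, endothelial and epithelial markers summed to at most 2.16 FPKM (Farage morusinol). From bulk RNA, fewer cells and less RNA per cell cannot be told apart. The steps between low values put the depth at an estimated 12.1 to 37.9 M counted units per library, lowest in SU-DHL-8 morusinol replicate 2, where M stands for 1e6 and a unit may be a fragment or 1 read of a pair. Depth went with treatment in Farage, at 18.7 to 25.3 M with morusinol against 33.2 to 37.9 M in control. In SU-DHL-8 it was 12.1 to 29.9 M with morusinol against 28.4 to 30.5 M in control. The part of depth in the results was not tested.

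Most subunit genes were lower after morusinol in both lines, in all 5 complexes. In Farage, 69 of the 78 members were called lower and 1 was called higher, while 21.2% of all tested genes were called lower and 21.9% higher (43.1% in either direction). In SU-DHL-8, 63 members were called lower and 4 higher, while 21.6% of all tested genes were called lower and 25.1% higher (46.8% in either direction). The median log2 fold change of the members was -0.61 in Farage and -0.49 in SU-DHL-8, against -0.03 and 0.02 over all genes tested. Among the 4570 genes with a mean of at least 10 FPKM, the medians were -0.04 in Farage and -0.13 in SU-DHL-8. Of these genes, 35.7% were called lower and 31.7% higher in Farage, and 46.0% lower and 28.0% higher in SU-DHL-8. The shares called lower thus exceeded those of all tested genes, most in SU-DHL-8. The lines have separate control libraries, and 63 members were called lower in both. The share of all tested genes called lower in both lines was not counted. Over all tested genes the fold changes of the lines also went together, with a Spearman's rho of 0.404. The exceptions were few: COX7A2L was called higher in both lines, NDUFV3 and NDUFB8 were called higher in SU-DHL-8 and lower in Farage, and COX4I1 was called higher in SU-DHL-8 and not called in Farage. Another 4 (NDUFA5, NDUFA10, NDUFC2 and UQCRB) were called lower in Farage and not in SU-DHL-8. The remaining 7 were called in neither line: NDUFA7, NDUFA13, NDUFB5, NDUFS4, NDUFS7, NDUFV2 and ATP5MC2.

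Libraries of the groups rarely overlapped. In Farage, all 3 morusinol values lay below all 3 control values for 70 members and above them for 1, against 25.3% and 25.8% of all tested genes. In SU-DHL-8 this held for 66 members below and 5 above, against 24.9% and 29.2% of all tested genes. The falls called in Farage ranged from -1.48 to -0.22 on the log2 scale, and those called in SU-DHL-8 from -1.44 to -0.27. As FPKM means, these were changes of -14.7% to -65.0% in Farage and of -17.3% to -64.7% in SU-DHL-8. Under every alternative that gave a value, 67 of the 69 calls in Farage and 61 of the 63 in SU-DHL-8 stayed lower; the exceptions were NDUFB11 and SDHA in Farage, and NDUFA9 and NDUFV1 in SU-DHL-8. With a filter at 5 FPKM, NDUFA9, NDUFA11, NDUFB9, SDHA and ATP5MG were not tested, so their calls have no value there. SDHA lost its call without Farage morusinol replicate 2. NDUFV1 lost it without SU-DHL-8 morusinol replicate 2 or 3 or SU-DHL-8 control replicate 3, with log2 fold changes of -0.38 to -0.19 over the alternatives. NDUFA9 lost it under 7 alternatives, among them leaving out replicate 1 or 2 of either SU-DHL-8 group, with log2 fold changes of -0.43 to -0.23.

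**Figure D1:**
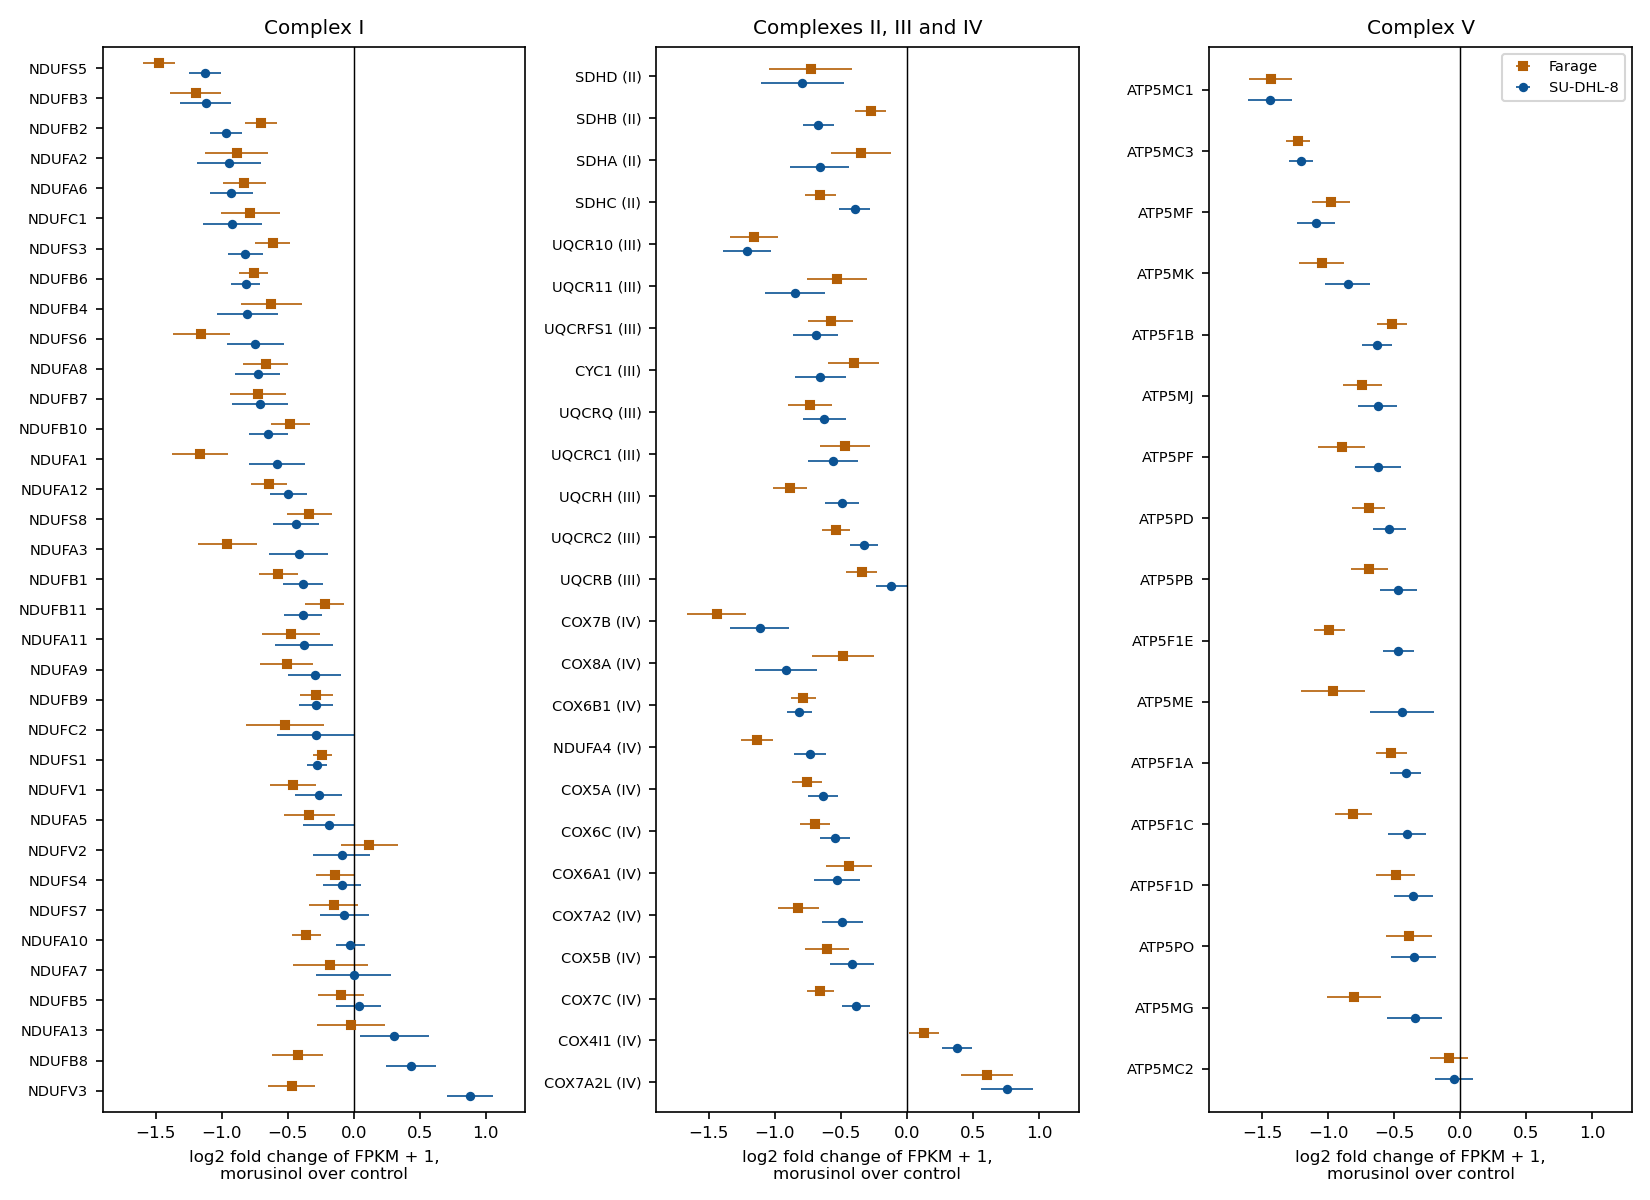
Log2 fold change of FPKM + 1 (morusinol over control, horizontal axis) of the subunit genes in Farage (squares) and SU-DHL-8 (circles), with 95% confidence intervals from limma. Nearly all genes lie left of 0 in both lines, and COX7A2L lies right of 0 in both.

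Summed over genes, the decrease was of like size in the 5 complexes. The 78 genes summed to 2108 ± 46.4 FPKM in Farage morusinol and 3401 ± 125 FPKM in Farage control, a change of -38.0%. They summed to 2298 ± 26.1 FPKM in SU-DHL-8 morusinol and 3470.5 ± 41.1 FPKM in SU-DHL-8 control, a change of -33.8% (SD, n = 3 each). By complex the change in Farage was -42.7% for complex I, -31.8% for II, -39.5% for III, -31.6% for IV and -39.0% for V. In SU-DHL-8 it was -36.3% for complex I, -33.3% for II, -34.5% for III, -29.6% for IV and -34.4% for V. The order of the complexes depended on the measure. By sum complex I changed most in both lines, but its median log2 fold change was the least negative, -0.49 in Farage and -0.38 in SU-DHL-8. For complex II the medians were -0.50 and -0.67, and those of the other complexes are given below. No test was made between complexes. A sum is led by the genes of highest FPKM, and ATP5F1B, the catalytic beta subunit of ATP synthase, had the highest FPKM in all 4 groups. It averaged 292 ± 13.3 FPKM in Farage morusinol against 419 ± 26.0 FPKM in Farage control, and 349 ± 8.49 FPKM in SU-DHL-8 morusinol against 541 ± 17.8 FPKM in SU-DHL-8 control. At the low end NDUFA7, NDUFA13 and NDUFS7 had group means around 1 FPKM, and none of these was called for morusinol in either line. NDUFA13, a membrane arm subunit of complex I, had a log2 fold change of 0.31 ± 0.117 in SU-DHL-8 (adjusted p = 0.0541) without overlap, and was called under 4 of 20 alternatives, among them leaving out SU-DHL-8 control replicate 3.

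**Figure D2:**
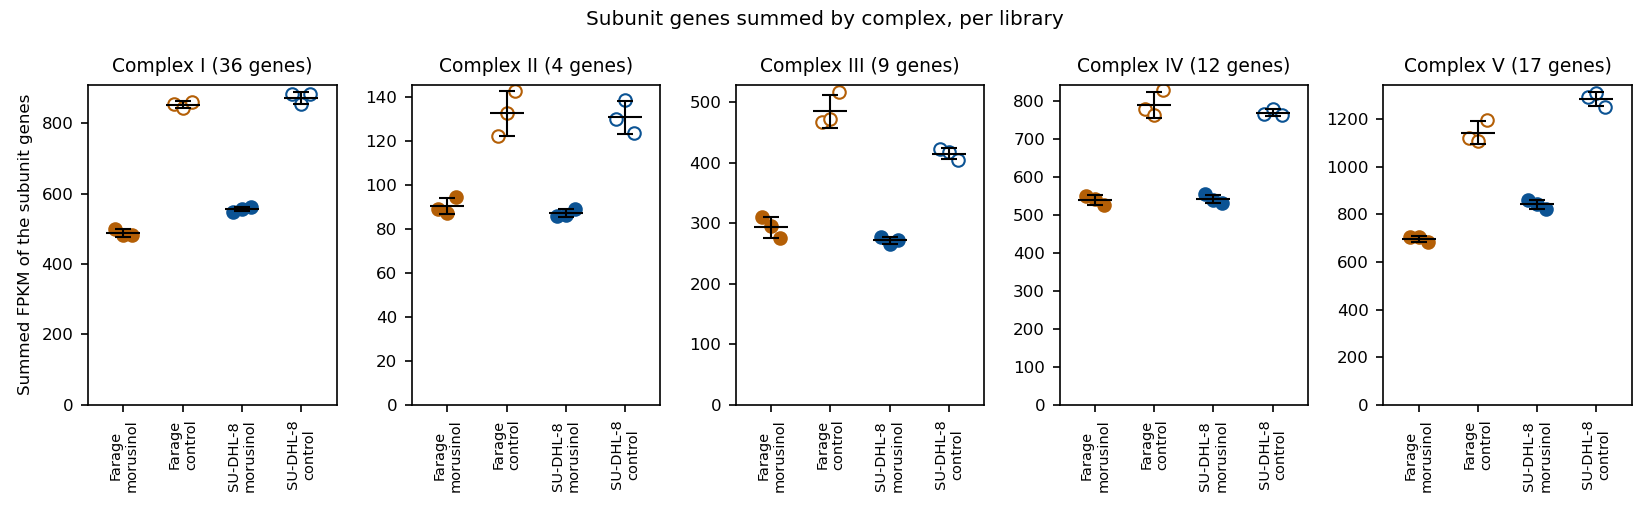
Summed FPKM of the subunit genes of each complex in every library (points; filled for morusinol, open for control), with the mean and SD of 3 libraries. In each complex and line, all morusinol libraries lie below all control libraries.

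Of the regulators named above, NRF1, GABP and YY1 have known DNA letters. The promoters of the members were searched for these and for letters of other factors on both strands. RefSeq (build GRCh38.p14) gave promoters of 64 of the 78 members, running from 250 bases before to 50 bases after the gene start, and the same window of 15843 protein-coding genes served for comparison. The NRF1 letters, GCGCA and GCGC with any 1 base between them, were in 16 member promoters (25%), against 8.58% of all promoters. The ETS letters CCGGAAG, of the kind GABP binds, were in 20 (31.2%) against 14.2%, and the YY1 letters AAGATGGC in 11 (17.2%) against 3.91%. Letters read by the stress factors ATF4 and CHOP (TGATGNAA, where N is any base) were in 1 member promoter (1.56%) against 2.53%, the E-box CACGTG in 7 (10.9%) against 8.88%, and the SP letters GGGCGG in 40 (62.5%) against 58.5%. Of these motifs only ETS and SP overlapped in a member promoter, in 1 instance. The NRF1 letters were in 6 of 31 promoters of complex I, 2 of 3 of complex II, 4 of 7 of complex III, 0 of 10 of complex IV and 4 of 13 of complex V.

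The 250 bases before the start of 6 members are printed 5′ to 3′ on the gene's strand, chosen after their values were seen. SDHD, ATP5MK and ATP5PF fell in both lines and show the motifs, ATP5MC1 and ATP5MC2 code for the same mature protein but changed unequally, and COX7A2L was called higher in both lines. Capitals mark matches to the NRF1, ETS or YY1 letters. SDHD lies at chr11:112086623-112086872 on the plus strand, with NRF1 letters at -110 that read alike on both strands and ETS letters at -77 on the minus strand. ATP5MK lies at chr10:103396476-103396725 on the minus strand, with overlapping ETS letters at -163 and -160. ATP5PF lies at chr21:25735055-25735304 on the minus strand, with YY1 letters at -57 and ETS letters at -30. ATP5MC1 lies at chr17:48892537-48892786 on the plus strand, ATP5MC2 at chr12:53676084-53676333 on the minus strand and COX7A2L at chr2:42361218-42361467 on the minus strand, and these 3 stretches hold none of the 3 motifs.
SDHD: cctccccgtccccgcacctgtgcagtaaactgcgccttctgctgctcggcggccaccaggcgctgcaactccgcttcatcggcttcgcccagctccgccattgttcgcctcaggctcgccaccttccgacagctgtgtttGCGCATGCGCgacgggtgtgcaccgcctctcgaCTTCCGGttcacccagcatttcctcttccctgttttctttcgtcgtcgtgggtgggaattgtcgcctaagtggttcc
ATP5MK: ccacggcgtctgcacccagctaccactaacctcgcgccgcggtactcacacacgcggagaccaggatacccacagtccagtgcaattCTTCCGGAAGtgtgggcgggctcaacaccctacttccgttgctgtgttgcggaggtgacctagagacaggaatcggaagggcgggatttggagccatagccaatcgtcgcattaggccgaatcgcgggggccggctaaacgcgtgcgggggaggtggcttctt
ATP5PF: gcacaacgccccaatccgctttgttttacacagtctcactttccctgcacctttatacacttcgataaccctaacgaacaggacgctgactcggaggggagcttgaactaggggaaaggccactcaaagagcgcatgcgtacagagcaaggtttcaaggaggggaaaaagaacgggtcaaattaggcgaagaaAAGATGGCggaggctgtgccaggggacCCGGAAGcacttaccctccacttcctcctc
ATP5MC1: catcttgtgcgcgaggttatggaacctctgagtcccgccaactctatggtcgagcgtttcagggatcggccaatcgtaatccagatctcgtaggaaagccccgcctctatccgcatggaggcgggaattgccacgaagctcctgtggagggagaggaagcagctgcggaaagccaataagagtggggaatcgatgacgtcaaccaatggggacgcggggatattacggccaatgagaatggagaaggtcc
ATP5MC2: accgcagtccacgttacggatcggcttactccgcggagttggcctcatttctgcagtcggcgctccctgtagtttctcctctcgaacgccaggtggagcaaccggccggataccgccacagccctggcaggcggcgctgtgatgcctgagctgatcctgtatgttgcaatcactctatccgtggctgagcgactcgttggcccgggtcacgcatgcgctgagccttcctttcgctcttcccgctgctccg
COX7A2L: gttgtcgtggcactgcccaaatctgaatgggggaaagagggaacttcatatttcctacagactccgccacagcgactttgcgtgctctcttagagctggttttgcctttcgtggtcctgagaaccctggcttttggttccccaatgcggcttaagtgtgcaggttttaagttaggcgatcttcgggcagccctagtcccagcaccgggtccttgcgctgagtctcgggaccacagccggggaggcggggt

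The median fold changes were compared between members with and without these letters. Members with the ETS letters had a median log2 fold change of -0.71 in Farage and -0.60 in SU-DHL-8, and the 44 without them -0.57 and -0.45. Members with the NRF1 letters had medians of -0.63 in Farage and -0.59 in SU-DHL-8, and those without them -0.61 and -0.48. Members with the YY1 letters had medians of -0.47 in Farage and -0.42 in SU-DHL-8, and those without them -0.64 and -0.53. Members with the SP letters had medians of -0.55 in Farage and -0.53 in SU-DHL-8, and those without them -0.73 and -0.49, so the order differed between the lines. The E-box members had medians of -0.53 and -0.44, and those without it -0.62 and -0.53. These are descriptions, with no test; a match is a run of letters and no measure of binding.

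Complex I takes electrons from NADH. Its 7 nuclear-encoded core subunits hold the flavin and the iron-sulfur clusters, and 5 of them were called lower in each line, with medians of -0.33 in Farage and -0.28 in SU-DHL-8. NDUFS3 fell most among them, by 0.61 in Farage and by 0.82 in SU-DHL-8, whereas NDUFV2 and NDUFS7 were not called. Of the 29 accessory subunits, 25 were called lower in Farage and 20 in SU-DHL-8, with medians of -0.57 and -0.42. NDUFS5, an accessory subunit on the intermembrane side, had 36.0, 34.4 and 39.0 FPKM in Farage morusinol, against 103, 109 and 98.0 FPKM in Farage control. It had 68.3, 72.9 and 66.3 FPKM in SU-DHL-8 morusinol, against 152, 151 and 153 FPKM in SU-DHL-8 control. The groups stood far apart in both lines, with log2 fold changes of -1.48 ± 0.0546 in Farage (adjusted p = 1.61e-08) and -1.12 ± 0.0546 in SU-DHL-8 (adjusted p = 6.21e-08). NDUFB3, of the membrane arm, fell by 1.20 in Farage and by 1.12 in SU-DHL-8. At the other end of the called falls in Farage was NDUFB11, also of the membrane arm, with 18.4, 18.5 and 16.5 FPKM in Farage morusinol against 21.3, 20.2 and 21.0 FPKM in Farage control. The values did not overlap, and the log2 fold change was -0.22 ± 0.0655 (adjusted p = 0.0203), but the call was lost under 6 of 21 alternatives, among them leaving out Farage control replicate 1 or 3 (-0.20 and -0.21) or Farage morusinol replicate 3 (-0.17).

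NDUFV3 and NDUFB8 were the members called in opposite directions. NDUFV3, a small accessory subunit beside the NADH-oxidising flavoproteins, had 1.70, 1.74 and 2.24 FPKM in Farage morusinol against 3.13, 2.90 and 2.96 FPKM in Farage control. In SU-DHL-8 it had 6.87, 6.28 and 6.92 FPKM with morusinol against 3.26, 2.91 and 3.35 FPKM in control. Controls of the lines were thus alike, and the morusinol groups lay on opposite sides of them. The log2 fold change was -0.47 ± 0.0792 in Farage (adjusted p = 0.000743) and 0.88 ± 0.0792 in SU-DHL-8 (adjusted p = 5.93e-06). NDUFB8, a membrane arm subunit often used on blots as a sign of assembled complex I, had 7.08, 7.90 and 7.36 FPKM in Farage morusinol against 11.6, 9.77 and 9.74 FPKM in Farage control. In SU-DHL-8 it had 11.3, 11.2 and 11.8 FPKM with morusinol against 8.67, 7.06 and 8.93 FPKM in control. Neither line's groups overlapped, with log2 fold changes of -0.42 ± 0.0861 in Farage and 0.43 ± 0.0861 in SU-DHL-8. In GENCODE 29 (GRCh38) NDUFB8 (ENSG00000166136, chr10:100523740-100530000, minus strand) shares 33.8% of its exon sequence with AL133352.1 on the same strand and 16.3% with HIF1AN on the other, so its reads may be divided among genes. NDUFV3 (ENSG00000160194, chr21:42879644-42913304, plus strand) overlaps no other exon.

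Complex II, succinate dehydrogenase, is encoded wholly by nuclear genes, and all 4 members were called lower in both lines. SDHA and SDHB carry the catalytic flavin and the iron-sulfur clusters, and SDHC and SDHD anchor them in the membrane. SDHA was low, with means of 1.58 FPKM in Farage morusinol, 2.27 FPKM in Farage control, 2.17 FPKM in SU-DHL-8 morusinol and 3.99 FPKM in SU-DHL-8 control. Its highest named pseudogene averaged 4.74 FPKM over all libraries, so reads of SDHA may be divided among genes. SDHD had 24.6, 22.7 and 28.6 FPKM in Farage morusinol against 35.9, 43.8 and 48.4 FPKM in Farage control, and 11.9, 13.8 and 11.9 FPKM in SU-DHL-8 morusinol against 23.8, 25.7 and 18.3 FPKM in SU-DHL-8 control. Its groups did not overlap, with log2 fold changes of -0.73 ± 0.140 in Farage (adjusted p = 0.00175) and -0.79 ± 0.140 in SU-DHL-8 (adjusted p = 0.000836). SDHB had 34.8, 37.1 and 37.5 FPKM in Farage morusinol against 41.3, 44.1 and 47.7 FPKM in Farage control. In SU-DHL-8 it had 27.7, 28.5 and 29.1 FPKM with morusinol against 46.7, 46.6 and 44.3 FPKM in control. It fell by 0.27 in Farage, the smallest fall of the complex there, and by 0.67 in SU-DHL-8. For SDHC the order of the lines was the opposite: it fell by 0.66 in Farage and by 0.40 in SU-DHL-8, where its values were 44.6, 41.5 and 46.1 FPKM with morusinol against 55.6, 62.3 and 57.1 FPKM in control.

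Complex III passes electrons from ubiquinol to cytochrome c. All 9 members were called lower in Farage and 8 in SU-DHL-8, with medians of -0.54 and -0.63. The catalytic subunits were among them: CYC1, which is cytochrome c1, fell by 0.40 in Farage and by 0.66 in SU-DHL-8, and UQCRFS1, the Rieske iron-sulfur protein, by 0.58 and by 0.69. The small subunit UQCR10 had 17.8, 16.1 and 16.2 FPKM in Farage morusinol against 38.6, 34.2 and 43.4 FPKM in Farage control, and 17.3, 16.3 and 18.9 FPKM in SU-DHL-8 morusinol against 40.5, 42.8 and 42.5 FPKM in SU-DHL-8 control. With no overlap in either line, its log2 fold changes were -1.16 ± 0.0813 in Farage (adjusted p = 1.39e-06) and -1.21 ± 0.0813 in SU-DHL-8 (adjusted p = 6.59e-07). UQCRB, which sits near a ubiquinone site, had the smallest fall in Farage, with 5.43, 4.98 and 5.29 FPKM with morusinol against 6.69, 7.07 and 6.94 FPKM in control (-0.34 ± 0.0524). In SU-DHL-8 it had 5.34, 6.17 and 5.83 FPKM with morusinol against 6.29, 6.24 and 6.55 FPKM in control, and the log2 fold change of -0.12 ± 0.0524 was not called (adjusted p = 0.089), though it was under TPM, with size factors or without SU-DHL-8 morusinol replicate 2. UQCRC2, a core protein without redox centres, had the smallest called fall in SU-DHL-8, with 40.0, 40.2 and 38.8 FPKM with morusinol against 49.1, 52.7 and 48.4 FPKM in control (-0.33 ± 0.0474).

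Complex IV, cytochrome c oxidase, had members at both ends. In each line 10 of 12 were called lower, with complex medians of -0.68 in Farage and -0.54 in SU-DHL-8. COX7B, a small membrane subunit, had 13.5, 11.9 and 14.5 FPKM in Farage morusinol against 34.2, 39.0 and 40.1 FPKM in Farage control, and 14.2, 17.6 and 14.0 FPKM in SU-DHL-8 morusinol against 33.4, 36.6 and 32.3 FPKM in SU-DHL-8 control. The log2 fold changes, with no overlap, were -1.44 ± 0.101 in Farage (adjusted p = 1.39e-06) and -1.12 ± 0.101 in SU-DHL-8 (adjusted p = 6.22e-06). COX7A2L, also called SCAF1 or COX7RP and known for joining complexes III and IV into supercomplexes, went the other way. It had 31.1, 28.97 and 30.3 FPKM in Farage morusinol against 16.7, 20.3 and 21.7 FPKM in Farage control, and 27.1, 24.7 and 27.6 FPKM in SU-DHL-8 morusinol against 14.999, 16.6 and 14.1 FPKM in SU-DHL-8 control. All morusinol libraries lay above all controls of their line, with log2 fold changes of 0.61 ± 0.0885 in Farage (adjusted p = 0.000276) and 0.76 ± 0.0885 in SU-DHL-8 (adjusted p = 4.2e-05). Under the alternatives the rise ranged from 0.50 to 0.68 in Farage and from 0.68 to 0.83 in SU-DHL-8. Its relative COX7A2, a subunit of complex IV proper, fell by 0.82 in Farage and by 0.49 in SU-DHL-8. COX4I1, the common isoform of subunit 4, had 104, 102 and 95.6 FPKM in Farage morusinol against 91.9, 86.7 and 97.0 FPKM in Farage control, which overlapped (0.13 ± 0.0512, adjusted p = 0.0642). This was called when values were scaled to protein-coding genes, or without replicate 3 of either Farage group. In SU-DHL-8 it had 73.1, 67.0 and 69.8 FPKM with morusinol against 52.1, 55.0 and 53.7 FPKM in control, with no overlap (0.38 ± 0.0512, adjusted p = 0.000123).

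NDUFA4 and its paralogue NDUFA4L2, which is not a member and is known as a gene induced by low oxygen in other cells, moved in opposite directions. NDUFA4 had 18.7, 21.2 and 20.0 FPKM in Farage morusinol against 44.6, 42.9 and 47.7 FPKM in Farage control, and 36.5, 38.2 and 37.7 FPKM in SU-DHL-8 morusinol against 62.3, 65.9 and 60.9 FPKM in SU-DHL-8 control. It fell by 1.14 in Farage and by 0.73 in SU-DHL-8. NDUFA4L2 had 4.74, 4.84 and 3.56 FPKM in Farage morusinol against 0.837, 0.796 and 0.947 FPKM in Farage control, and 9.30, 8.78 and 9.70 FPKM in SU-DHL-8 morusinol against 3.07, 2.89 and 3.09 FPKM in SU-DHL-8 control. The log2 fold changes were 1.52 ± 0.0899 in Farage (adjusted p = 4.32e-07) and 1.35 ± 0.0899 in SU-DHL-8 (adjusted p = 6.23e-07). NDUFA4 had the higher FPKM of the pair in every group. NDUFA4L2 was picked for the smallest sum of p ranks among 3 tested tissue and paralogue isoforms, and the others did not rise. UQCRHL had log2 fold changes of -0.77 in Farage (called lower) and -0.12 in SU-DHL-8 (not called). COX7A1 had -0.02 in Farage and -0.06 in SU-DHL-8 and was not called.

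Complex V had 16 of 17 members called lower in each line, with medians of -0.81 in Farage and -0.47 in SU-DHL-8. All 5 genes of the catalytic F1 head fell, with medians of -0.52 in Farage and -0.41 in SU-DHL-8. The 4 genes of the peripheral stalk had medians of -0.69 and -0.50, and the 5 small membrane subunits of -0.96 and -0.62. ATP5PO, the stalk protein known as OSCP, had 7.90, 8.10 and 9.57 FPKM in Farage morusinol against 10.8, 12.0 and 11.5 FPKM in Farage control, the smallest called fall there (-0.39 ± 0.0775, no overlap). ATP5MG, a membrane subunit at the dimer interface, had the smallest in SU-DHL-8, with 3.55, 3.55 and 3.37 FPKM with morusinol against 4.71, 4.996 and 4.42 FPKM in control (-0.35 ± 0.0928).

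The 3 ATP5MC genes code for different import signals on an identical mature c subunit, and they responded unequally. ATP5MC1 had 12.8, 11.3 and 12.0 FPKM in Farage morusinol against 33.9, 31.2 and 37.9 FPKM in Farage control, and 14.3, 15.7 and 14.5 FPKM in SU-DHL-8 morusinol against 45.1, 41.6 and 39.7 FPKM in SU-DHL-8 control. It had a log2 fold change of -1.44 ± 0.0747 in each line, the largest fall of complex V, with no overlap (adjusted p = 1.66e-07 in Farage and 9.83e-08 in SU-DHL-8). ATP5MC3 had 30.5, 30.7 and 28.3 FPKM in Farage morusinol against 69.5, 70.7 and 73.8 FPKM in Farage control, and 24.5, 23.8 and 24.2 FPKM in SU-DHL-8 morusinol against 59.1, 56.2 and 55.6 FPKM in SU-DHL-8 control. It fell by 1.23 ± 0.0408 in Farage and by 1.20 ± 0.0408 in SU-DHL-8. ATP5MC2 had 31.7, 32.3 and 30.8 FPKM in Farage morusinol against 36.1, 29.8 and 35.3 FPKM in Farage control, and 76.6, 75.5 and 78.1 FPKM in SU-DHL-8 morusinol against 83.6, 75.6 and 78.8 FPKM in SU-DHL-8 control. Its values overlapped in both lines, with log2 fold changes of -0.09 in Farage (95% interval -0.23 to 0.06, adjusted p = 0.329) and -0.05 in SU-DHL-8 (-0.19 to 0.10, adjusted p = 0.634). Without Farage control replicate 2 the value in Farage was -0.17 and was called. ATP5MC2 made up 43.0 ± 0.651% of the FPKM of the 3 genes in Farage morusinol against 24.2 ± 1.64% in Farage control, and 66.3 ± 0.628% in SU-DHL-8 morusinol against 44.5 ± 0.823% in SU-DHL-8 control. The 3 genes together summed to 73.4 ± 2.05 FPKM in Farage morusinol against 139 ± 7.63 FPKM in Farage control, and to 116 ± 0.961 FPKM in SU-DHL-8 morusinol against 178 ± 8.08 FPKM in SU-DHL-8 control. Processed pseudogenes could take reads from such genes: the table names 8 of ATP5MC1 and 4 of ATP5MC2, of which the highest averaged 1.22 and 1.51 FPKM.

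**Figure D3:**
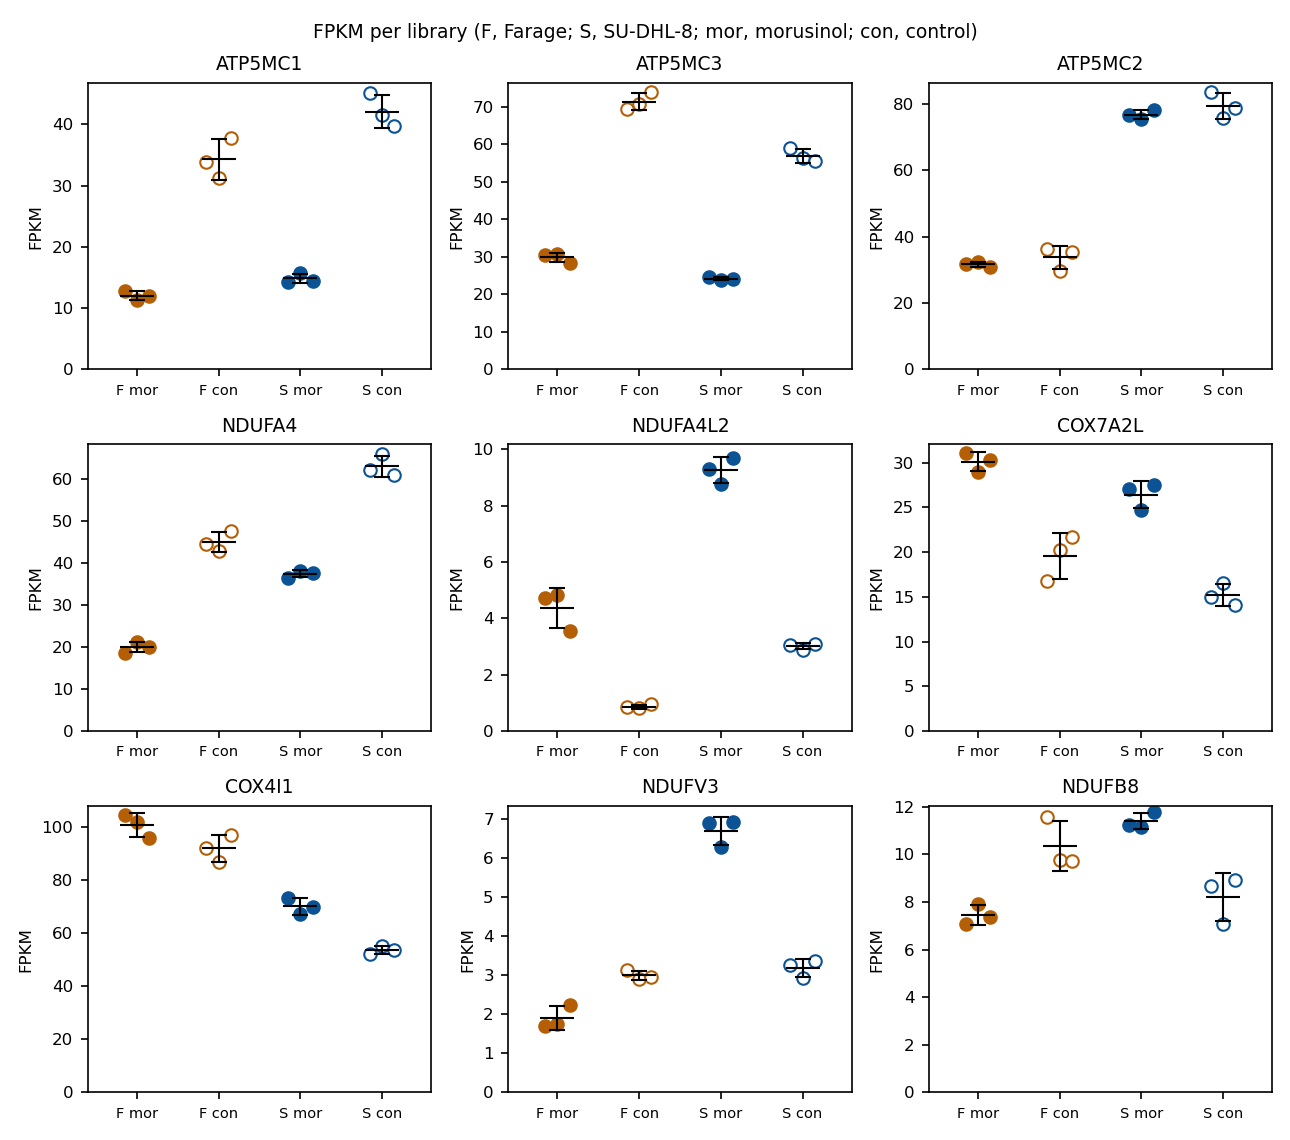
FPKM in every library (points; filled for morusinol, open for control) with the mean and SD of 3 libraries, for the c subunit genes, NDUFA4 and its paralogue NDUFA4L2, and the members called higher in a line. ATP5MC1 and ATP5MC3 fell in both lines while ATP5MC2 overlapped its controls, and NDUFV3 and NDUFB8 moved in opposite directions.

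The responses of the lines were compared gene by gene as the difference of log2 fold changes, Farage minus SU-DHL-8. The difference was called for 22 members, 19 lower and 3 higher, where 17.6% of all tested genes were called lower and 17.3% higher (34.9% in either direction). When each library was rescaled to the same sum (TPM), 7 members were called lower and 5 higher, and the median over the members was -0.01 in place of -0.11. NDUFA1, NDUFB8, NDUFV3, UQCRH, NDUFA4, ATP5F1C, ATP5F1E and SDHB were called under every alternative run. The largest negative differences were -1.35 ± 0.112 for NDUFV3 and -0.86 ± 0.122 for NDUFB8, followed by -0.58 ± 0.136 for NDUFA1 and -0.54 ± 0.142 for NDUFA3. NDUFA1, a membrane arm subunit encoded on the X chromosome, had 68.8, 58.5 and 54.5 FPKM in Farage morusinol against 132, 145 and 132 FPKM in Farage control, and 51.6, 53.5 and 63.3 FPKM in SU-DHL-8 morusinol against 88.7, 78.9 and 84.7 FPKM in SU-DHL-8 control. Groups did not overlap in either line, and the larger drop in Farage started from higher controls. NDUFA3, also of the membrane arm, had 7.44, 8.91 and 9.17 FPKM in Farage morusinol against 18.9, 15.6 and 17.8 FPKM in Farage control. It had 11.2, 14.3 and 12.9 FPKM in SU-DHL-8 morusinol against 18.2, 16.4 and 17.6 FPKM in SU-DHL-8 control.

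The 3 members with a called difference in the other direction, a smaller fall in Farage, were COX8A, SDHB and NDUFB2. COX8A, a small membrane subunit of complex IV, had 60.8, 65.5 and 51.9 FPKM in Farage morusinol against 91.2, 73.9 and 85.4 FPKM in Farage control, and 77.7, 63.7 and 77.6 FPKM in SU-DHL-8 morusinol against 143, 138 and 133 FPKM in SU-DHL-8 control. Its difference of 0.43 ± 0.1497 (adjusted p = 0.0469) lost its call under 12 of 20 alternatives, 8 of which left out 1 library, and ranged from 0.34 to 0.55. SDHB, described above, had a difference of 0.40 ± 0.0742 (adjusted p = 0.00212). NDUFB2, a membrane arm subunit, had 5.56, 5.87 and 4.99 FPKM in Farage morusinol against 9.45, 9.25 and 9.85 FPKM in Farage control, and 6.53, 6.63 and 6.45 FPKM in SU-DHL-8 morusinol against 14.6, 13.4 and 13.3 FPKM in SU-DHL-8 control. Its difference of 0.27 ± 0.0783 (adjusted p = 0.0236) lost its call under 7 of 20, 5 of which left out 1 library, and ranged from 0.22 to 0.38. Across the 78 genes the fold changes of the lines went together, with Spearman's rho of 0.729 and Pearson's r of 0.756, against 0.404 and 0.406 over all 17574 genes. Genes are not independent replicates, so no p is given. The sign was shared by 73 of 78 members (93.6%) and by 62.7% of all genes.

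**Figure D4:**
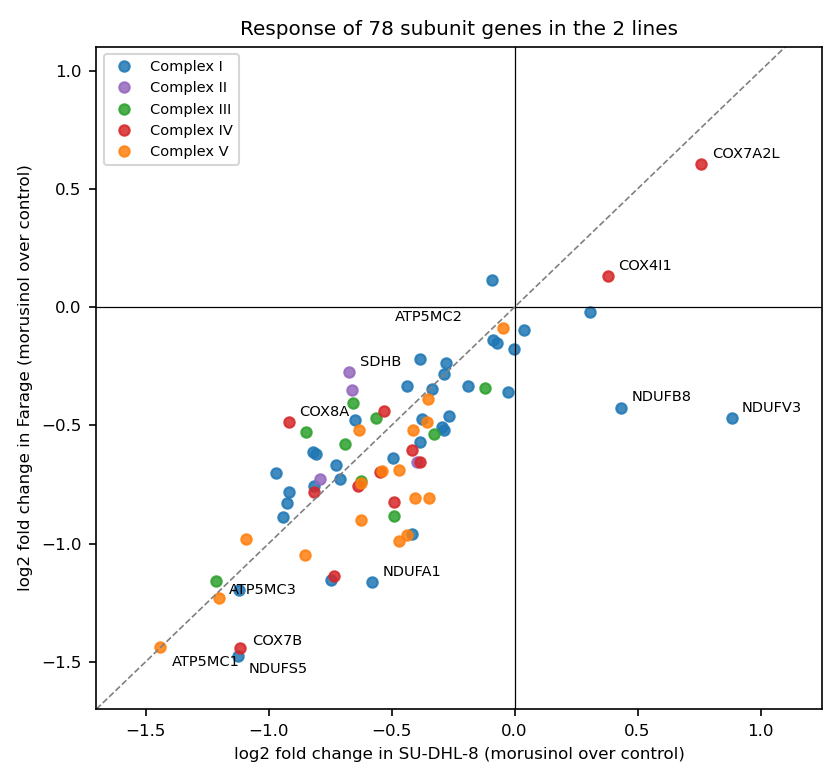
Log2 fold change (morusinol over control) in SU-DHL-8 on the horizontal axis and in Farage on the vertical axis, with 1 point per subunit gene coloured by complex; the dashed line marks equal changes. Most points lie in the lower left, COX7A2L and COX4I1 lie at the upper right, and NDUFB8 and NDUFV3 lie at the lower right.

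In untreated cells the lines differed for single subunits in both directions. Farage control minus SU-DHL-8 control was called higher for 24 members (30.8%) and lower for 26 (33.3%). Of all tested genes, 34.5% were called higher and 29.6% lower (64.1% in either direction), so the members' shares were close to those of all genes. Rescaled to TPM, 28 members were called higher and 19 lower, and that scaling moved the median of all genes from 0.08 to 0.19. ATP5ME, a small membrane subunit of ATP synthase, had 22.6, 21.7 and 24.7 FPKM in Farage control against 7.57, 8.65 and 10.8 FPKM in SU-DHL-8 control, a log2 difference of 1.27 ± 0.109. ATP5ME shares 61.6% of its exon sequence with MYL5 on the other strand, so its reads may be divided among genes. SDHD and NDUFA6, an accessory subunit that binds the mitochondrial acyl carrier protein, were higher in Farage by 0.89 and 0.88. NDUFA6 had 42.2, 44.7 and 46.9 FPKM in Farage control against 25.4, 22.7 and 23.0 FPKM in SU-DHL-8 control. The values of these 3 genes did not overlap between the lines.

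Among the members lower in Farage were ATP5MC2 and UQCR11. ATP5MC2, whose values are given above, differed by -1.21 ± 0.0656 and UQCR11, a small subunit of complex III, by -1.19 ± 0.101. UQCR11 had 5.32, 4.63 and 4.35 FPKM in Farage control against 11.9, 11.5 and 12.9 FPKM in SU-DHL-8 control. These groups did not overlap either.

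Members with a short annotated exon sequence had the more negative medians. The length is that of all annotated exons of a gene joined, not of a transcript. Of the 30 members with less than 2000 bases of exon sequence, 28 were called lower in Farage and 27 in SU-DHL-8, with medians of -0.75 and -0.65. Of the 48 with 2000 bases or more, 41 were called lower in Farage and 36 in SU-DHL-8, with medians of -0.52 and -0.40. Over all tested genes the medians were -0.16 for the shorter and 0.04 for the longer genes in Farage, the same order as in the members, and 0.01 for both in SU-DHL-8. The shares of all tested genes called lower had the other order, with 16.4% of the shorter and 24.4% of the longer genes in Farage, and 10.2% and 29.7% in SU-DHL-8. Across members, exon length and log2 fold change had a rho of 0.406 in Farage and 0.471 in SU-DHL-8, against 0.243 and 0.00855 over the 17100 tested genes with a length. Across members, mean level and log2 fold change had a rho of -0.357 in Farage and -0.343 in SU-DHL-8, against 0.0645 and -0.158 over all tested genes. These are descriptions over genes that share the same libraries. Whether length itself bears on the values was not tested.

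Proteins that build, join or neighbour the chain were set beside the members. The 13 mitochondrially encoded subunits were listed at 0 in all libraries and could not be tested. NDUFAB1, the acyl carrier protein of complex I, fell by 0.93 in Farage and by 0.90 in SU-DHL-8, and CYCS, cytochrome c, by 0.98 and by 0.63. Of 61 tested assembly factors, 32 were called lower and 7 higher in Farage, and 28 lower and 9 higher in SU-DHL-8, with medians of -0.28 and -0.14. The shares called lower were 52.5% in Farage and 45.9% in SU-DHL-8. They were 21.2% and 21.6% of all tested genes, and 35.7% and 46.0% of genes with a mean of at least 10 FPKM. SLIRP, COA4 and COX19 are named for the smallest sums of p ranks among complex IV factors. SLIRP, which stabilises mitochondrial mRNAs, fell by 1.43 in Farage and by 1.11 in SU-DHL-8, and COA4, a complex IV assembly factor, by 1.16 and by 0.95. COX19, which helps deliver copper to complex IV, rose by 0.80 in Farage and by 0.27 in SU-DHL-8. For complex I, 12 of 18 factors were lower and 0 higher in Farage, and 8 lower and 2 higher in SU-DHL-8. For complex IV, 13 of 26 were lower in each line, with 3 higher in Farage and 5 in SU-DHL-8. For complex V, whose list includes the inhibitor ATP5IF1, 3 of 6 were lower in each line, with 2 higher in Farage and 0 in SU-DHL-8. For complex II 1 of 4 factors was lower and 1 higher in each line, and for complex III 3 of 7 were lower and 1 higher in each.

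Ribosomal proteins of the mitochondria, which translate the mitochondrially encoded subunits, and of the cytosol were set beside the members as well. Of 75 tested mitochondrial ribosomal protein genes, 54 were called lower and 4 higher in Farage, and 55 lower and 3 higher in SU-DHL-8, with medians of -0.41 and -0.46. Of 82 tested cytosolic ribosomal protein genes, 37 were called lower and 2 higher in Farage, with a median of -0.12, and 5 lower and 62 higher in SU-DHL-8, with a median of 0.27. Of all tested genes, 21.2% were called lower and 21.9% higher in Farage, and 21.6% lower and 25.1% higher in SU-DHL-8. No test was made between these sets and the members.

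Among 14 tested regulators of mitochondrial biogenesis, 6 were called lower and 1 higher in Farage, and 8 lower and 1 higher in SU-DHL-8. The other 7 in Farage and 5 in SU-DHL-8 were not called. The regulators called lower that are named next were picked for the smallest sums of p ranks over both lines, so they do not stand for the list. TFAM, which packages and transcribes mitochondrial DNA, averaged 26.3 FPKM in Farage morusinol against 35.7 FPKM in Farage control, and 24.2 FPKM in SU-DHL-8 morusinol against 37.3 FPKM in SU-DHL-8 control (log2 fold changes -0.43 and -0.60). PPARGC1B, a PGC-1 coactivator, fell by 0.40 in Farage and by 0.89 in SU-DHL-8. ESRRA, the nuclear receptor ERR alpha, fell by 0.54 and by 0.43, and the coactivator PPRC1 by 0.36 and by 0.41. NRF1 was not called, with log2 fold changes of 0.00 in Farage and 0.22 in SU-DHL-8, nor was GABPA, the ETS subunit of GABP, with -0.07 and -0.16. PPARGC1A had group means of at most 0.0158 FPKM and was not tested.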

How the data were processed

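RNA sequencing of 12 libraries was analysed from a single table. The authors deposited FPKM values per gene and library, with human Ensembl gene identifiers. The sources used here do not give the aligner, the counting program or the use of strand, and the submitters' processing notes name only mouse genome builds although the identifiers are human. Of 61466 identifiers 58297 matched GENCODE release 29 (GRCh38), which gave positions and exon lengths. Without strand, reads of overlapping genes cannot be told apart: 24 members share exon sequence with a gene on the same strand and 33 with a gene on the other strand. Besides NDUFB8 and ATP5ME, the shared part was 44.85% for NDUFB11 (with RBM10) and 44.5% for NDUFA1 (with RNF113A), both on the other strand. For COX8A it was 34.5%, with AP000721.1 on the same strand. Named pseudogenes of 48 members are in the table, 30 of them with a mean over 1 FPKM, and could divide reads. That of NDUFV2 averaged 3.08 FPKM over all libraries, against group means of 1.68 to 3.06 FPKM for NDUFV2 itself.

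Columns were assigned by name; those marked n were taken as control. Genes with at least 1 FPKM in at least 3 libraries were kept (17574), transformed to log2(FPKM + 1) and fitted with limma 3.58.1 in R 4.3.3 with 1 mean per group over all 12 libraries, an intensity trend and a robust prior. Fold changes on this scale understate the change of low genes. Tests were two-sided with Benjamini-Hochberg adjustment over all tested genes. The fit was tested on simulated data. Counts of fragments were not used; steps of the low values gave the depth, with 71.8% to 76.5% of low values whole within 0.02. Motifs, tables and plots used Python 3.11.15, pandas 2.3.3 and matplotlib 3.10.9.

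The members, the other gene lists and the rule for named genes were chosen with earlier results of these data known. Called examples from the other gene lists were taken from those with the smallest sums of p ranks over both lines. The rule named, per complex and line, the called members with the largest fall and the most positive change without overlap, every member called higher, the 4 largest differences of responses and 3 largest control differences each way, and the ATP5MC genes. Of the genes this rule names, 1 member is left out of the text and of the plot of fold changes by gene, and is not reported here; it is kept in all counts, sums and medians. Alternatives were a pseudocount of 0.1, no filter, a filter at 5 FPKM, 3 other scalings (TPM, protein-coding sum, median-of-ratios size factors), limma without trend and robust prior, a replicate block, each line alone and each library left out.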

Additional observations from a re-analysis of the deposited data

Results flagged for a closer look

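The response to morusinol differed between the lines, by the limma test of the difference itself (adjusted p under 0.05), for 22 of the 78 subunit genes, while 34.9% of all tested genes were called for this difference, a larger share. As log2 fold change in Farage minus log2 fold change in SU-DHL-8, the members of complex I were NDUFV3 (-1.35), NDUFB8 (-0.86), NDUFA1 (-0.58), NDUFA3 (-0.54), NDUFS6 (-0.41), NDUFS5 (-0.35), NDUFA10 (-0.33) and NDUFB2 (0.27). Those of complex II were SDHC (-0.26) and SDHB (0.40), and those of complex III UQCRH (-0.39), UQCRB (-0.22) and UQCRC2 (-0.21). Those of complex IV were NDUFA4 (-0.40), COX7A2 (-0.33), COX7C (-0.27), COX4I1 (-0.25) and COX8A (0.43). Those of complex V were ATP5ME (-0.52), ATP5F1E (-0.52), ATP5MG (-0.46) and ATP5F1C (-0.41). NDUFV3 and NDUFB8 were called in opposite directions in the lines, and SDHB was the only member called as falling less in Farage under every alternative run.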

How the results depend on the processing

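The direction of the members' medians held in both lines under every alternative. In SU-DHL-8 the median of -0.49 was -0.55 with a filter at 5 FPKM, -0.63 rescaled to TPM, -0.42 scaled to protein-coding genes and -0.53 with size factors, and -0.53 to -0.49 with 1 library left out. In Farage the 1 member called higher became 2 when scaled to protein-coding genes, and 1 to 2 with 1 library left out (2 without replicate 3 of Farage control or of Farage morusinol). For the difference of responses, the 19 members called lower became 12 without a filter, 7 under TPM, 12 with size factors and 13 to 19 with 1 library left out, and the 7 of complex I became 3 under TPM. The 3 called higher became 1 without a filter, 5 under TPM and 1 to 5 with 1 library left out. They were 1 without SU-DHL-8 control replicate 1, Farage control replicate 2, or Farage morusinol replicate 1 or 2, and 5 without SU-DHL-8 morusinol replicate 1 or Farage morusinol replicate 3. The median difference of -0.11 became -0.0086 under TPM. For the controls, the median of -0.02 turned to 0.076 under TPM, 0.043 scaled to protein-coding genes and 0.0041 without Farage control replicate 1, with a range of -0.045 to 0.0041 when 1 library was left out. The 7 members of complex V called lower there became 3 under TPM and 4 scaled to protein-coding genes. The 6 of complex IV called higher were 3 to 6, and the 5 of complex V 3 to 5, with 1 library left out (3 without Farage control replicate 3). The causes were not tested.

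Replicate numbers did not pair the samples: the 6 correlations between same-numbered libraries ran from -0.079 to 0.033. With a replicate block, 68 members were called lower and 1 higher in Farage, 62 lower and 4 higher in SU-DHL-8, and 11 lower and 1 higher for the difference of responses. Depth is known only as an estimate, and 3 libraries per group limit the precision.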
